A study of Mus musculus with 23 samples.

Results

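The libraries described here are the controls of a study of Notch1 in muscle progenitors made from pluripotent stem cells: 4 libraries of progenitors in culture and 9 of cells re-isolated after engraftment, 13 of the 23 mouse RNA-seq libraries of the series. All 13 come from iPAX3 cells, a mouse embryonic stem cell line, and are labelled WT for genotype. The other 10 libraries hold progenitors that overexpress NICD1, the intracellular part of the Notch1 receptor, in culture (3) and after re-isolation (4), and re-isolated Notch1 knockout cells (3). The labels call the cultured cells ESC-derived myogenic progenitors and the re-isolated ones donor-derived satellite cells. They give no host strain, injury, time after transplantation or sorting gate, and do not say whether a library is a culture, a clone, an animal or a pool of animals, so the p-values below measure the spread between these libraries, which may be technical. The members were chosen by title: every library titled as control, cultured or re-isolated. Their comparison asks how the transcriptome of these progenitors differed before and after engraftment.

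Satellite cells are the stem cells of skeletal muscle. They lie under the basal lamina of the fibre, express the transcription factor Pax7, stay out of the cell cycle until the muscle is injured, and need Notch signalling to remain there. In that pathway a ligand on a neighbouring cell (Dll or Jag) triggers cleavage of a Notch receptor, the freed intracellular domain joins the DNA-binding protein Rbpj and a Mastermind co-activator (Maml), and the complex switches on repressors of the Hes and Hey families. Embryonic muscle progenitors depend on Pax3 instead and divide.

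The setting and the library preparation changed together. Per the labels' protocols, Trizol extraction and the TruSeq stranded mRNA kit served the cultured cells. For the re-isolated cells Buffer RLT, bead purification, cDNA amplification with the NEBNext Single Cell/Low Input kit and the Nextera XT kit were used. An effect of the kit and an effect of engraftment cannot be told apart in any comparison of these 4 with these 9 libraries. Depth was 15273185 to 21761905 reads over the listed genes in culture and 16501661 to 28941840 after re-isolation, so that 1 read was worth at most 0.0655 CPM (counts scaled to a common library size).

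The 9 re-isolated libraries fall into 2 sets. The deposited column headers end in GoF for replicates 1, 4, 7, 8 and 9, as for all 4 cultured controls, but not for replicates 2, 3, 5 and 6, and the labels do not explain this suffix. The summed level of the Y-linked genes Ddx3y, Eif2s3y and Uty was 90.7 to 158 CPM in the cultured libraries and 76.7 to 267 CPM in the 5 libraries with the suffix. It was 0.0982, 0.167, 0.615 and 6.33 CPM in the 4 without, where Ddx3y had 0, 2, 6 and 46 reads. The 4 libraries without the suffix, labelled as the same line, therefore lie below all other control libraries in these transcripts. Whether their cells differ in origin was not tested. The second principal component (17.0% of the variance of log2 CPM) separated the same sets, and the first (56.5%) separated the cultured from the re-isolated libraries. Correlations of log2 CPM were 0.922 to 0.982 between cultured libraries, 0.851 to 0.931 within the suffix set and 0.916 to 0.944 within the set without it. Lists are given over all 9 libraries and over the 5 with the suffix, and single genes with the suffix alone where that changes a call. Both fits share the 4 cultured libraries.

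**Figure D1:**
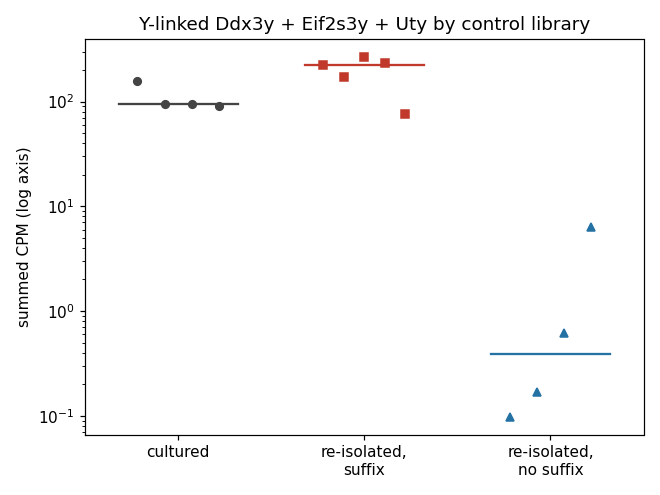
Summed CPM of the 3 Y-linked genes Ddx3y, Eif2s3y and Uty (log axis) in each control library, with the median of each set as a line. The 4 re-isolated libraries without the header suffix lie between 0.0982 and 6.33 CPM, below all 5 with the suffix and all 4 cultured ones.

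Most genes differed between the settings. With limma on the log2 CPM, 7974 of 13731 genes tested passed an adjusted p of 0.05, which is 58.1% of them. In each direction, 24.1% were higher and 33.9% lower after re-isolation, and over the 5 libraries with the suffix 25.3% of 13190 genes were higher and 37.5% lower. With the 4 libraries without the suffix 27.8% of 13198 genes were higher and 37.9% lower. A count of genes from a list has to be read against these shares. Without overlap between the 9 and the 4 libraries, 14.2% of genes lay higher and 24.7% lower. All differences below are log2, re-isolated minus cultured, with limma's standard error after the ±, and the adjusted p is limma's after Benjamini-Hochberg over all genes tested. The median over all tested genes was -0.23, against -0.32 with the suffix set and -0.22 with the set without it. Median ratio scaling of the libraries moved it to -0.01, and the share of calls that were higher from 41.6% to 49.7%. By scaling alone, a difference within about 0.23 of 0 therefore has no settled sign. Centring by transcript length, described next, moved the medians of the shortest and the longest transcripts by more.

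Transcript length, taken from the longest annotated transcript of each gene, moved with the difference. In 5 classes of the tested genes by transcript length, of equal size, the median log2 difference went from 0.59 in the shortest through 0.17, -0.32 and -0.62 to -1.16 in the longest, and from 0.47 to -1.10 over the 5 libraries with the suffix. Values "centred by transcript length" below come from a fit in which each library was centred on the typical log2 CPM of genes of like length. That fit was added after the data were seen. It called 3693 genes higher and 3694 lower (26.9% and 26.9%) with a median of -0.01, and 16 genes had a call in each fit with opposite signs.

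**Figure D2:**
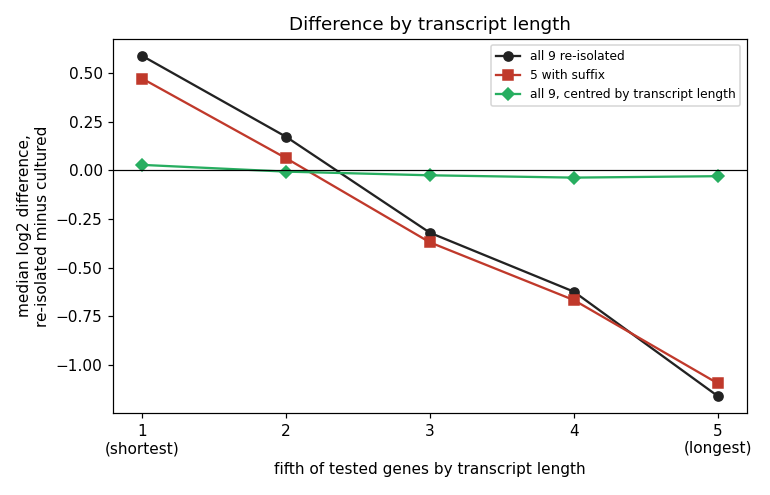
Median log2 difference (re-isolated minus cultured) in 5 classes of the tested genes by transcript length, of equal size, for all 9 re-isolated libraries, for the 5 with the suffix, and after centring by transcript length. The median fell from 0.59 in the shortest to -1.16 in the longest class, and lay near 0 in each class after centring.

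Pax7, which defines satellite cells, had few reads in culture and was present in each re-isolated library. Of 25 satellite cell genes, all tested, 13 rose and 5 fell (median 1.13), against 24.1% and 33.9% of all genes. Over the 5 libraries with the suffix 11 rose and 5 fell of 25 (median 0.62), and after centring by length 13 rose and 2 fell (median 1.51). Pax7, the transcription factor that marks the cell type (chromosome 4, 139737062 to 139833528 of GRCm38/mm10, minus strand), stood at 0.046, 0, 0 and 0.178 CPM in the cultured libraries and at 11.5 to 113 CPM (median 51.8) in the re-isolated ones. No re-isolated library came near a cultured one, and the lowest was replicate 1, a library with the suffix. The difference was 9.0 ± 0.55, adjusted p = 1.03e-08, and 8.40 with the suffix alone.

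The other satellite cell genes that rose encode surface and regulatory proteins known from satellite cells. Which cells in a library gave these reads was not tested. Msc, a repressor related to MyoD, was at 0.046, 0, 0.0464 and 0.416 CPM in culture and at 40.4 to 357 CPM (median 154) after re-isolation (10.18 ± 0.56, adjusted p = 4.46e-09). Cd34, a surface sialomucin that endothelial and fibro-adipogenic cells carry too, was at 1.47, 0.0655, 0.371 and 10.6 CPM and then at 26 to 205 CPM (median 119.9). The suffix set held the higher Cd34 values (119.9 to 205 against 26 to 82.5 CPM without the suffix), and cultured replicate 4 was the highest of its group. The difference was 6.58 ± 0.90, adjusted p = 1.94e-05. The lectin-like membrane protein Chodl (7.94 ± 0.93), the laminin-binding integrin Itga7 (3.85 ± 0.50), the tetraspanin Cd82 (2.75 ± 0.29), the adhesion molecule Vcam1 (2.73 ± 0.31) and the growth factor receptor Fgfr1 (1.76 ± 0.28) also rose, in each case with no overlap between the settings. Sdc4 (1.66 ± 0.54) and Cdh15 (1.37 ± 0.52), a syndecan and the cadherin of satellite cells, passed over all 9 libraries but not with the suffix alone (adjusted p = 0.0786 and 0.223). Sdc4 lost its call without cultured replicate 2 or 3 (adjusted p up to 0.0599). Cdh15 lost it without cultured replicate 2, 3 or 4 or re-isolated replicate 2, 3, 5 or 6 (up to 0.111).

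Another 5 satellite cell genes fell and 7 did not pass. Notch3, a Notch receptor kept by these cells (-2.16 ± 0.48, adjusted p = 0.0013), Megf10 (-1.34 ± 0.34) and the hepatocyte growth factor receptor Met (-1.20 ± 0.34) fell, but none of these 3 passed after centring by length (Notch3 -0.81, adjusted p = 0.165). The focal adhesion protein Vcl fell in both fits (-2.13 and -1.37). Myf5, a myogenic regulator already on in quiescent cells, fell (-1.50 ± 0.50, adjusted p = 0.0178) and lost its call without cultured replicate 1 or 3 (adjusted p up to 0.0958). Calcr, the calcitonin receptor of adult quiescent cells, was at 0.773 to 44.3 CPM in culture and 1.68 to 55.9 CPM after re-isolation (0.36 ± 1.14, adjusted p = 0.801). Spry1, Chrdl2, Fgfr4, Itgb1, Sdc3 and Cxcr4 did not pass either, with differences from -0.44 (Cxcr4) to 0.30 (Fgfr4).

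**Figure D3:**
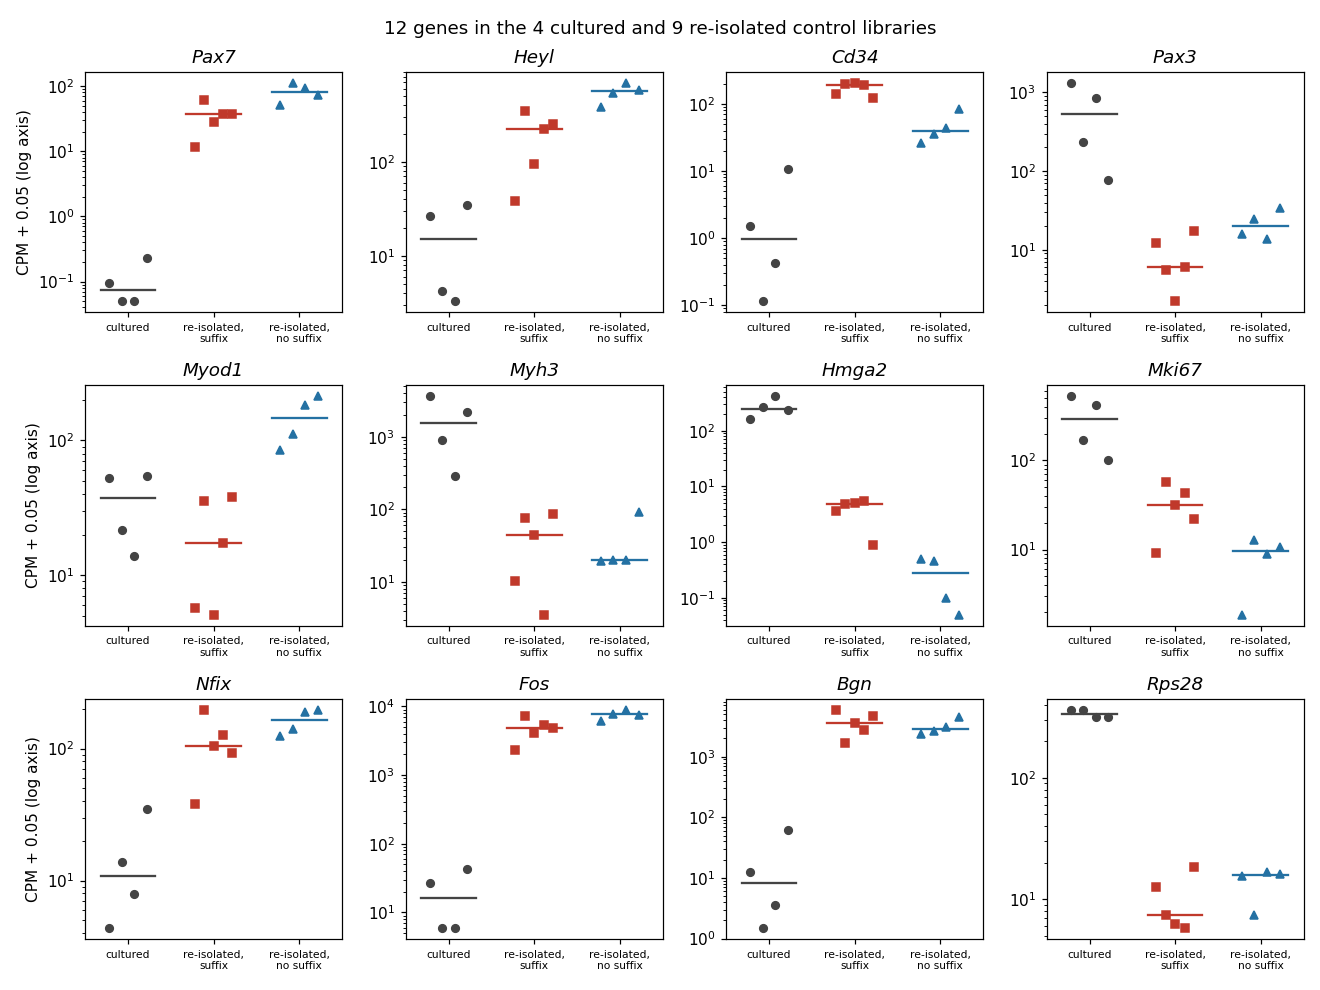
CPM + 0.05 (log axis) of 12 genes in the 4 cultured libraries, the 5 re-isolated libraries with the header suffix and the 4 without, 1 point a library, with the median of each set as a line. Pax7, Heyl, Cd34, Nfix, Fos and Bgn are higher and Pax3, Myh3, Hmga2, Mki67 and Rps28 lower in all 9 re-isolated than in all 4 cultured libraries, and Myod1 overlaps.

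In the Notch pathway the repressors Heyl, Hes1, Hey1 and Hey2 rose, and Notch2, Jag2, Maml1 and Lfng fell. Of 25 genes listed 23 were tested, of which 9 rose and 7 fell (median 0.48), against 24.1% and 33.9% of all genes. After centring by length 12 rose and 5 fell (median 0.90). With the suffix alone 7 rose and 7 fell of 21 (median 0.56). Among receptors, Notch1, the receptor this study is about, was at 61.3, 78.4, 71 and 105 CPM in culture and 14.9 to 174 CPM (median 88.9) after re-isolation. The groups overlap and the difference was -0.04 ± 0.56, adjusted p = 0.951. Notch2 fell from 129 to 381 CPM to 20.1 to 33.6 CPM (-3.17 ± 0.24, adjusted p = 7.01e-08), with no overlap. Notch4, known from endothelium, rose by 2.94 ± 0.52 from 0.297 to 0.368 CPM to 1.17 to 7.41 CPM. Of the ligands, Jag2 fell (-4.17 ± 1.03), Dll1 did not pass (0.48 ± 0.37), and Jag1 was higher by 1.06 ± 0.41 but lost its call with the suffix alone (adjusted p = 0.129) and without any 1 of cultured replicates 1 to 3 or re-isolated replicates 2, 3 and 9 (up to 0.2). Dll3 and Dll4 were too low to test. The co-activator Maml1 (-2.70 ± 0.41), the glycosyltransferase Lfng, which modifies the receptors (-2.58 ± 0.47), the inhibitor Numb (-1.99 ± 0.36) and Rbpj (-1.25 ± 0.24) fell. Rbpj did not pass after centring by length (-0.34, adjusted p = 0.16).

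Heyl, a Notch target repressor, was at 26.3, 4.19, 3.25 and 34.3 CPM in culture and at 38.7 to 693 CPM (median 351) after re-isolation. The 4 libraries without the suffix held the higher values (384 to 693 against 38.7 to 351 CPM), and no re-isolated library fell within the cultured range. The difference was 4.63 ± 0.76, adjusted p = 0.000103, and 3.81 with the suffix alone. Hes1 (3.33 ± 0.50), Hey1 (4.41 ± 0.68) and Hey2 (3.97 ± 0.58), repressors of the same 2 families, also rose without overlap, by 2.56, 3.49 and 3.45 with the suffix alone. Hes5 had 0 reads in culture and 674 in the 9 re-isolated libraries, at least 91-fold higher when 3 reads are set over the cultured group, and at least 59.7-fold without re-isolated replicate 6. Its level was 0 to 1.36 CPM with the suffix, too low to test in that set, and 3.79 to 16.3 CPM without. Nrarp, a feedback inhibitor of the pathway, was higher by 4.04 ± 1.24 over all 9, but by 1.92 with the suffix (adjusted p = 0.0539) against 6.70 without it. With limma-voom on the recovered reads neither Nrarp nor Hes5 passed (adjusted p = 0.244 and 0.0554).

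Rbpj binds a short core, TGGGAA, in many target promoters. The window before the start of Hes5 is shown because its gene went from no read to a measurable level. It holds the core in both orientations, in capitals, at 226 and 82 bases before the start. RefSeq gives it on GRCm38.p6, plus strand, 250 bases, 5′ to 3′.
Hes5 promoter, chr4:154960673-154960922: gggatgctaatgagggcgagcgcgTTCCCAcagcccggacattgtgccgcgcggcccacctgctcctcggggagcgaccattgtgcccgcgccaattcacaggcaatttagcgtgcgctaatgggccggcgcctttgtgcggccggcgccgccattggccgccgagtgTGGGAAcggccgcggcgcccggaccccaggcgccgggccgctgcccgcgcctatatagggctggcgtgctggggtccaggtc
The window of Hey2, which runs from 250 bases before to 50 after its start, holds 2 matches on either strand, and those of Nrarp and Pax7 hold none. Over the RefSeq windows of all tested genes 23.4% held TGGGAA on either strand, against 24.9% for genes called higher, 22.2% for genes called lower, 25% of 24 windows of 18 Notch pathway genes and 29.2% of 24 windows of 18 satellite cell genes. A match is a description of letters in a window and not a binding site. Windows of Hes1, Hey1 and Heyl were not used here.

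Pax3 and several regulators of muscle differentiation were lower after re-isolation. Pax3, the embryonic muscle factor that gives the line its name (chromosome 1, 78101267 to 78197134), was at 1328, 232, 844 and 77.8 CPM in the cultured libraries and at 2.18 to 34 CPM (median 13.9) in the re-isolated ones. Every re-isolated library lay below every cultured one (-5.06 ± 0.74, adjusted p = 3.46e-05; -5.76 with the suffix alone). Reads of a Pax3 transgene, if any were counted, cannot be told apart from those of the gene. Of 16 premyogenic mesoderm genes tested 4 rose and 4 fell, against 24.1% and 33.9% of all genes, so rises were about as frequent as among all genes. The homeobox genes Meox2 (0 to 0.476 CPM to 10.5 to 82.4 CPM, 7.22 ± 0.67) and Meox1 (3.11 ± 0.47), both of the somite, and Tcf15 rose, the latter with 3 reads in culture and 204 after re-isolation (ratio per read sequenced 27.5, 95% interval 9.29 to 135). Without re-isolated replicate 2, 105 of these reads remained and the Tcf15 ratio was 15.9, against 17.4 with the suffix alone. Pdgfra rose too (2.93 ± 1.11), a receptor of mesoderm and also a marker of fibro-adipogenic cells, which did not pass with the suffix alone (adjusted p = 0.054) or without cultured replicate 1 or 3 or re-isolated replicate 1 or 4 (up to 0.141). The median of the list was 0.83, but -0.49 over the 12 genes tested with the suffix alone, so the list has no settled direction.

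Of 20 myogenic regulators tested, 2 rose and 8 fell (median -0.88), against 24.1% and 33.9% of all genes. With the suffix alone 2 rose and 10 fell of 20 (median -1.21), and without it 4 rose and 7 fell of 19 (median -0.09). In the set without the suffix 37.9% of all genes fell, and a median of -0.09 has no settled sign. Whether this list fell thus depended on the set. Myod1, which commits cells to muscle, was at 52.8, 21.5, 13.8 and 54.8 CPM in culture and 5.06 to 213 CPM (median 38.4) after re-isolation (0.39 ± 0.92, adjusted p = 0.736). Its re-isolated values differed by set: 5.06 to 38.4 CPM with the suffix and 84.3 to 213 CPM without. Against culture the difference was -1.05 with the suffix (adjusted p = 0.207) and 2.18 without it (0.00203). Myog, which drives differentiation, fell by 1.49 ± 0.42 from 129 to 953 CPM to 93.3 to 269.6 CPM, with overlap. Srf, the serum response factor that controls actin genes, went from 51.3 to 76 CPM to 1.54 to 3.88 CPM (-4.60 ± 0.31, adjusted p = 2.49e-08), with no overlap, and the RNA-binding Rbm24 (-3.58 ± 0.33), the co-receptor Cdon (-3.07 ± 0.42) and Mef2d (-2.62 ± 0.25) fell likewise. Myf6, a regulator of late differentiation, rose (4.37 ± 0.91, and 2.89 with the suffix alone), though limma-voom on the recovered reads gave an adjusted p of 0.0886, and Hacd1 rose by 1.65 ± 0.27.

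Of 31 sarcomere and contractile genes tested 7 rose and 11 fell (median -0.65), shares near those of all genes (24.1% and 33.9%). With the suffix 4 rose and 16 fell of 30 (median -1.30), and without it 11 rose and 7 fell of 31 (median 0.33), so the sign of the median depends on the set. Without cultured replicate 4, 7 rose and 7 fell. Over all 9 the falls held the cardiac actin Actc1 (-2.88 ± 0.74), the fast troponin Tnnt3 (-2.09 ± 0.48), Mybph (-2.75 ± 0.81), Myom2 (-2.18 ± 0.48) and the calcium channel of the fibre membrane Cacna1s (-2.76 ± 0.57). Tcap, Casq1 and Ckm, a titin cap, a calcium store protein and muscle creatine kinase, rose by 4.32 ± 0.94, 3.22 ± 0.69 and 3.08 ± 0.81. Of 10 myosin heavy chains 3 rose and 1 fell (median -0.11), also with the suffix alone, where the median was -1.09. The median was 0.99 after centring by length, so it has no settled sign. Embryonic Myh3 went from 3594, 891, 291 and 2205 CPM to 3.51 to 92.3 CPM (median 20.4) (-5.47 ± 0.81, adjusted p = 4.09e-05), and adult fast Myh1 from 18.8, 1.7, 3.25 and 56.7 CPM to 31.6 to 218 CPM (median 122) (3.56 ± 0.74, adjusted p = 0.000797). In Myh3 the settings do not overlap. In Myh1 cultured replicate 4 lies within the re-isolated range. Of 12 markers of mature fibres 6 rose and 0 fell, over all 9 as with the suffix alone, with summed levels of 80 to 754 CPM in culture and 666 to 1452 CPM after re-isolation, and whether fibre RNA entered the re-isolated libraries was not tested. In bulk RNA, fewer cells of a type and less RNA per cell cannot be told apart.

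Growth genes of the embryo were lower after re-isolation in most members tested. Of 25 listed, 20 were tested, of which 1 rose and 15 fell (median -3.17). With the suffix alone 0 rose and 14 fell of 20 (median -2.93), and after centring by length 0 rose and 14 fell (median -2.02). Hmga2, a chromatin protein of fetal stem cells (chromosome 10, 120361275 to 120476469), was at 161, 262, 417 and 235 CPM in culture and at 0 to 5.45 CPM (median 0.839) after re-isolation. It was lower in all 9 libraries, and lowest in those without the suffix (0 to 0.442 against 0.839 to 5.45 CPM). The difference was -8.07 ± 1.12, adjusted p = 2.27e-05, and -6.24 with the suffix alone. Lin28b, which blocks maturation of let-7 microRNAs, was at 10.9, 4.39, 13.1 and 4.1 CPM and then at 0 to 0.32 CPM (median 0) (-6.20 ± 0.78, adjusted p = 8.15e-06). Replicates 2, 4 and 7 held its re-isolated reads and the other 6 libraries had 0. Trim71, a partner of Lin28 in stem cells (-6.41 ± 0.58, adjusted p = 3.4e-07), and the mRNA-binding proteins Igf2bp1 (-3.37 ± 0.47), Igf2bp2 (-3.32 ± 0.26) and Igf2bp3 (-4.22 ± 0.51) fell without overlap. So did the imprinted genes Peg10 (-5.65 ± 0.42), Cdkn1c (-5.35 ± 1.30), Grb10 (-3.51 ± 0.29), Peg3 (-3.22 ± 0.44) and Plagl1 (-2.59 ± 0.43), and the receptors Igf2r (-3.12 ± 0.46) and Igf1r (-1.71 ± 0.23).

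The exceptions depended on the set. Igf2, the fetal insulin-like growth factor, differed by -2.73 ± 1.10 over all 9 libraries, by -4.61 with the suffix and by -0.38 without it (adjusted p = 0.474). Its call was lost on leaving out any 1 of cultured replicates 1, 2 and 4 or re-isolated replicates 1, 4, 7, 8 and 9 (adjusted p up to 0.114). Dlk1 (-0.03 with and -4.86 without the suffix) and Mest (0.04 and -2.52), both imprinted, did not pass over all 9. Gpc3, a surface glypican, was the 1 member that rose (1.77 ± 0.68), but not with the suffix alone (adjusted p = 0.208) or without any 1 of cultured replicates 2 and 3 or re-isolated replicates 1, 2, 3, 5, 6 and 9 (up to 0.151). Hmga1 and Dnmt3b did not pass (-0.48 ± 0.38 and -0.27 ± 0.45).

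Several of these genes are known targets of let-7 microRNAs, which share the seed GAGGUAG (bases 2 to 8) in 10 of 11 mature members of the RefSeq table. The microRNAs themselves were not measured, and this look at the sequences was chosen after the values were seen. A member that differs in 1 base of the seed is shown beside 2 that share it, with the seed in capitals (RNA, 5′ to 3′, RefSeq).
mmu-let-7a-5p: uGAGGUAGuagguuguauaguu
mmu-miR-98-5p: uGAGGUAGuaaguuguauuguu
mmu-let-7j: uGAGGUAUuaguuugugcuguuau
Of the 20 oncofetal genes tested, 10 (50%) hold the complement of the seed, CTACCTC, at least once in the 3′ UTR of the longest annotated transcript (GENCODE M21, GRCm38), against 1395 of 13404 tested genes with a 3′ UTR (10.4%). The UTRs of the 20 are longer than most (median 2772 against 1153 bases), and in the longest of 5 classes of UTRs 639 genes held a match and 2042 did not. Lin28b, Hmga2, Trim71 and Igf2bp1 hold 4 matches each, and Hmga1, which did not pass, holds 1. The first match of the 4 genes and that of Hmga1 are printed as 22 bases of the transcript strand, with the match in capitals.
Lin28b site 1, chr10:45381022-45381043 (-): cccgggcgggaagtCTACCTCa
Hmga2 site 1, chr10:120364224-120364245 (-): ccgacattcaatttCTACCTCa
Trim71 site 1, chr9:114512472-114512493 (-): acattgcctaagtcCTACCTCa
Igf2bp1 site 1, chr11:95961778-95961799 (-): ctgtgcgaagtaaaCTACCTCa
Hmga1 site 1, chr17:27563278-27563299 (+): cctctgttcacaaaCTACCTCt
Over all tested genes the median log2 difference was -0.70 with a match and -0.18 without, but the UTRs with a match are longer (median 2411 against 1043 bases). In 5 classes of UTR length, from the shortest to the longest, the medians with and without a match were -0.20 against 0.22, 0.08 against 0.12, -0.67 against -0.24, -0.58 against -0.43 and -0.93 against -0.71. The median was lower with a match in each class, but within each class the UTRs with a match were also the longer ones. Their median length was 285 against 208 bases in the shortest class, which held 45 genes with a match. In the longest class it was 4167 against 3609 bases. Whether the match or the length goes with the difference was not tested. A match is a description of the sequence and not a measured site.

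Nuclear factor I genes, transcription factors of which Nfix is known for the switch from embryonic to fetal myogenesis, were higher: of 4, 3 rose and none fell (median 1.98), with the same counts over the 5 libraries with the suffix. Nfix stood at 4.32, 13.9, 7.84 and 35 CPM in culture and 37.9 to 196 CPM (median 127) after re-isolation, without overlap (3.42 ± 0.49, adjusted p = 2.83e-05). Nfia (2.47 ± 0.33, adjusted p = 1.39e-05) and Nfib (1.49 ± 0.37, adjusted p = 0.00286) rose, and Nfic did not pass (0.20 ± 0.29, adjusted p = 0.582).

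Genes of the circadian clock changed in both directions. Of 18 tested, 8 rose and 3 fell (median 0.46). With the suffix 8 rose and 5 fell of 18 (median 0.39), and after centring by length 12 rose and 2 fell (median 0.94). The activator Arntl (2.59 ± 0.25, adjusted p = 6.9e-07), its partner Npas2 (2.41 ± 0.63), the repressor Nr1d1 (4.32 ± 0.29, adjusted p = 2.12e-08), the receptor Rora (4.14 ± 0.46, adjusted p = 2.58e-06) and the repressors Bhlhe40 (3.99 ± 0.49) and Nfil3 (3.09 ± 0.41) rose without overlap. Nr1d1 was at 11.6, 6.74, 5.48 and 11.5 CPM in culture and 89.6 to 274 CPM (median 166) after re-isolation. Of the period genes Per1 and Per2 did not pass (-0.78 ± 0.48 and 0.02 ± 0.43), and Per3 fell (-1.46 ± 0.39) but did not pass after centring by length (adjusted p = 0.26). The output factor Tef fell too (-1.76 ± 0.31).

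Genes that respond to glucocorticoids, the adrenal stress hormones, rose in 10 of 16 tested and fell in 1 (median 2.44). With the suffix alone 8 rose and 3 fell of 15 (median 1.71). Sgk1, a kinase of ion transport, was at 33.3, 54.3, 55.9 and 31.2 CPM in culture and at 447 to 1014 CPM (median 675) after re-isolation (3.98 ± 0.26, adjusted p = 1.69e-08). Cebpd (7.34 ± 0.67), the metal-binding Mt2 (4.29 ± 0.85), Klf9 (2.87 ± 0.24), Errfi1 (2.85 ± 0.49) and Tsc22d3 (2.03 ± 0.28) rose without overlap, though Mt2 did not pass with limma-voom (adjusted p = 0.0603). The chaperone Fkbp5, a gene of the same response, did not pass (-0.38 ± 0.44, adjusted p = 0.476), nor did Per1. Dusp1 and Nfkbia, counted here too, also belong to the early response described next.

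Immediate early and heat shock genes held the highest median of the 22 gene programmes examined. Of 31 tested, 27 rose and 0 fell (median 4.23), and with the suffix alone 27 rose and 2 fell of 31 (median 4.09). Their summed level was 3863 to 4549.7 CPM in culture and 16030.0 to 53421 CPM after re-isolation. Fos, a subunit of the transcription factor AP-1, was at 26.7, 5.89, 5.85 and 42.2 CPM in culture and at 2341 to 8943 CPM (median 6059) after re-isolation (8.64 ± 0.50, adjusted p = 6.55e-09). The re-isolated library with the least Fos, replicate 1, also had the lowest sum of the list. Egr2 (8.74 ± 0.57), Atf3 (8.96 ± 0.56), the phosphatase Dusp1 (7.80 ± 0.38, adjusted p = 1.64e-09), Fosb (7.01 ± 0.35), Junb (5.93 ± 0.44), Jun (5.34 ± 0.38) and Nr4a1 (6.13 ± 0.40) rose without overlap. Klf2, listed among pluripotency genes, rose by 5.50 ± 0.43, while 13 of the 15 genes of that list were too low to test, Pou5f1 with 0 CPM in both groups.

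Among heat shock genes Hspa1a, the inducible Hsp70, went from 0.643, 1.64, 0.464 and 1.19 CPM to 294 to 2634 CPM (median 1896) (10.46 ± 0.51, adjusted p = 1.64e-09). It shares most of its sequence with Hspa1b (4.93 ± 0.37), so the split between the pair is uncertain. Dnajb1 (5.43 ± 0.47) and Hspb1 (3.19 ± 0.71) rose too, and Hsp90aa1 did not pass (0.18 ± 0.28).

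Genes of cell division fell, and so did most of the quiescence genes that changed. Of 34 cell cycle genes tested, none rose and 23 fell (median -1.89). With the suffix 0 rose and 19 fell (median -1.17), and without it 0 rose and 30 fell (median -2.71). Mki67, a protein of dividing cells, was at 524, 168, 414 and 100.4 CPM in culture and at 1.82 to 57.6 CPM (median 12.6) after re-isolation (-4.04 ± 0.73, adjusted p = 0.000243; -3.15 with the suffix alone). Each re-isolated library lay below each cultured one. The spindle checkpoint kinases Bub1 (-4.19 ± 0.77) and Bub1b (-4.62 ± 0.88), the motor proteins Cenpe (-3.62 ± 0.53) and Kif11 (-3.41 ± 0.66) and Top2a (-2.96 ± 0.44), which untangles replicated DNA, fell likewise. Pcna, the sliding clamp of replication (-0.21 ± 0.28), and Tyms, which makes thymidylate (-0.48 ± 0.40), did not pass, and the helicase subunit Mcm7 fell by 1.23 ± 0.36.

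Of 18 quiescence genes, 3 rose and 10 fell (median -1.50), with the same counts for the suffix alone (3 and 10). Ndrg2 (6.51 ± 0.51, adjusted p = 8.63e-08), a stress-linked gene, the secreted Gas6 (2.65 ± 0.34) and the antiproliferative Btg2 (2.88 ± 0.36), also an early response gene, rose. The cell cycle inhibitor Cdkn1c, also counted among the imprinted genes above, was at 23.7, 71.4, 31 and 7.61 CPM in culture and 0 to 4.06 CPM (median 1.43) after re-isolation (-5.35 ± 1.30, adjusted p = 0.00245). Foxo4 (-4.78 ± 0.45, adjusted p = 4.77e-07) and Foxo3 (-2.72 ± 0.22), transcription factors, the retinoblastoma protein Rb1 (-2.62 ± 0.40) and Tsc1 (-2.64 ± 0.38), which restrains mTOR, also fell without overlap. Cdkn1b fell over all 9 (-2.59 ± 0.76) but not after centring by length (adjusted p = 0.0555). Among 16 p53 target genes 2 rose and 11 fell (median -1.30), and with the suffix 2 rose and 10 fell of 16 (median -0.94). The falls held Trp53inp1 (-4.80 ± 0.37, adjusted p = 7.03e-08), Ccng1 (-3.66 ± 0.28, adjusted p = 6.73e-08) and Zmat3 (-3.02 ± 0.22). The p53 target Phlda3 rose (1.15 ± 0.19), and after centring by length it did not pass (adjusted p = 0.157).

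Antigen presentation and interferon genes were higher in 23 of 28 tested and lower in 1 (median 2.39), and with the suffix alone 19 rose and 1 fell of 28 (median 2.33). H2-D1, a class I antigen presenting molecule, was at 9.33, 21.4, 23.1 and 9.4 CPM in culture and 186 to 618 CPM (median 431) after re-isolation (4.67 ± 0.34, adjusted p = 4.68e-08), without overlap. H2 genes are close copies of each other, so counts of single members are uncertain. Ifit1 (7.65 ± 0.56, adjusted p = 4.76e-08), Ifit3 (7.51 ± 0.69), Isg15 (6.62 ± 0.80), Irf7 (5.36 ± 0.54) and Psmb8 (4.07 ± 0.54), all induced by interferon, and Irf1 (2.91 ± 0.23, adjusted p = 9.8e-08) rose. The 1 that fell, Tap1 (-0.78 ± 0.30), lost its call without any 1 of cultured replicates 2 and 3 and re-isolated replicates 1, 3 and 8 (adjusted p up to 0.125). Cd74, a class II chaperone of antigen presenting cells, rose from 0.184, 0.589, 0.139 and 1.07 CPM to 4 to 825 CPM (median 53.1) (6.60 ± 1.29, adjusted p = 0.000461), but did not pass with limma-voom (adjusted p = 0.187).

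Macrophage markers rose beside these genes: 11 of 12 rose and none fell, over all 9 libraries as with the suffix alone. C1qb, a complement gene of macrophages, had 0 reads in culture and 6356 after re-isolation, at least 858-fold higher (at least 1251-fold over the 5 with the suffix). The summed level of the 12 genes was 3.86 to 13.9 CPM in culture and 74.8 to 823 CPM after re-isolation, and 96.2 to 823 CPM in the suffix set against 74.8 to 227 CPM without the suffix. The 2 highest libraries were re-isolated replicates 4 and 8. Lymphocyte and neutrophil markers summed to at most 3.19 CPM in any re-isolated library, and 1 of 9 was tested, Cd79a, which did not pass (adjusted p = 0.283). The part of these cells in the interferon and antigen values was not tested.

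**Figure D4:**
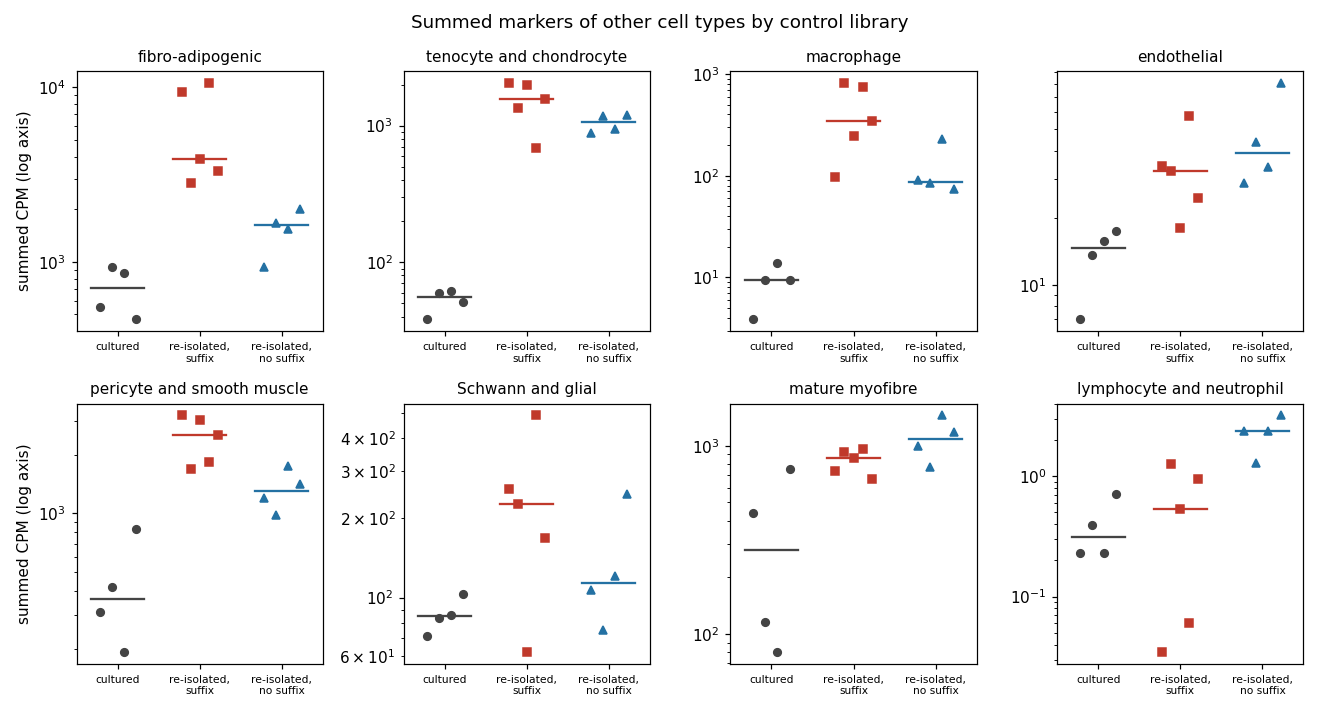
Summed CPM (log axis) of markers of 8 other cell types in each control library, with the median of each set as a line. Fibro-adipogenic, tenocyte and macrophage sums lie higher in all 9 re-isolated than in all 4 cultured libraries, and the Schwann and mature fibre sums overlap between the settings.

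Extracellular matrix genes rose in 18 of 39 tested and fell in 9 (median 0.44). With the suffix 21 rose and 4 fell of 39 (median 1.66), and without it 16 rose and 16 fell of 39 (median 0.08). Leaving out cultured replicate 4 gave 19 that rose and 6 that fell. Bgn, a small proteoglycan, was at 12.7, 1.44, 3.57 and 61.4 CPM in culture and at 1697 to 5945 CPM (median 3081) after re-isolation (8.65 ± 0.68, adjusted p = 9.4e-08). The chains of collagen VI, Col6a1 (6.80 ± 0.71), Col6a2 (7.54 ± 0.66, adjusted p = 2.39e-07) and Col6a3 (6.92 ± 1.02), elastin (Eln, 9.54 ± 1.07), Col15a1 (6.93 ± 0.72) and Postn (6.07 ± 0.77) rose without overlap. Cultured replicate 4 stood above the other cultured libraries in collagen I: Col1a1 was at 0.184, 15.3, 6.68 and 2312 CPM there and at 1804 to 8145 CPM (median 6762) after re-isolation (8.20 ± 1.51, adjusted p = 0.000287). Of the members that fell, Col4a1, a collagen IV chain (-2.35 ± 0.24, adjusted p = 1.39e-06), the laminin chain Lama5 (-2.70 ± 0.37) and the perlecan gene Hspg2 (-2.29 ± 0.38) did so without overlap, and still fell after centring by length (-1.24, -1.56 and -1.15). Lamb1 and Nid1 fell over all 9 (-1.33 ± 0.41 and -1.16 ± 0.34) but not after that centring (adjusted p = 0.334 and 0.898).

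Markers of connective tissue and vessel cells stood beside the matrix genes. Of 9 fibro-adipogenic markers 7 rose and 0 fell, with summed levels of 468 to 936 CPM in culture and 937 to 10637 CPM after re-isolation. With the suffix 6 rose and 0 fell of 9 (median 7.18). The sum was 2817 to 10637 CPM with the suffix and 937 to 2017 CPM without. Pi16 and Clec3b, made by fibroblasts, rose (8.28 ± 0.73 and 7.17 ± 0.75), while Ly6a, used to sort such cells, did not pass (-0.95 ± 0.62). Of 9 pericyte and smooth muscle markers 7 rose and 0 fell (193 to 833 CPM in culture and 984 to 3195 CPM after re-isolation), among them Rgs5 (6.26 ± 0.78), Pdgfrb (4.27 ± 0.67) and Kcnj8 (6.46 ± 0.74), and with the suffix 6 rose and 0 fell of 9 (median 2.61). Of 8 tenocyte and chondrocyte markers 4 rose and 1 fell (38.1 to 61.3 CPM in culture and 689 to 2065 CPM after re-isolation), and with the suffix 4 rose and 1 fell of 7 (median 4.95). Sox9, the chondrocyte factor, rose from 6.75 to 21.9 CPM to 249 to 1129.5 CPM (5.51 ± 0.39, adjusted p = 3.49e-08), while Scx, the tendon factor, fell (-1.94 ± 0.31).

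Endothelial markers summed to 6.98 to 17.4 CPM in culture and 18 to 81 CPM after re-isolation, and of 9 tested 4 rose and 0 fell, with the suffix 5 rose and 0 fell of 7 (median 3.20). Pecam1 and Cdh5, which define that cell type, did not pass (1.43 ± 0.70 and 3.0 ± 1.49), and Flt1 rose (3.73 ± 0.72). Of 7 Schwann and glial markers tested 4 rose and 1 fell, with Gfap (7.55 ± 0.78) and Sox10 (5.84 ± 0.76) among the higher and Erbb3 (-3.88 ± 0.41) lower. Their sum overlapped between the settings (71.5 to 103 CPM in culture and 62.1 to 488 CPM after re-isolation), and with the suffix 4 rose and 1 fell of 7 (median 3.88). Of 5 neuronal markers tested 1 rose and 1 fell, and with the suffix 1 rose and 2 fell. Adipocyte markers were all too low to test, and of the erythroid ones Alas2 was tested and rose (2.13 ± 0.71), a call lost without cultured replicate 2 or 3 (adjusted p up to 0.0933). The part of these cell types in the matrix values was not tested.

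The largest rises by fold held further matrix and connective tissue genes. Prelp, a proteoglycan of connective tissue, was at 0, 0, 0 and 0.892 CPM in culture and 432 to 3191 CPM (median 1019) after re-isolation (13.43 ± 0.69, adjusted p = 2.3e-09), followed by Fmod (11.46 ± 1.11), Dpt (11.32 ± 0.61), the bradykinin receptor Bdkrb1 (11.32 ± 0.55) and Fgl2 (10.62 ± 0.53). Msx1, a repressor of myogenic differentiation, had 2 reads in culture and 20036 after re-isolation. Per read sequenced this is a 4058-fold ratio, with a 95% interval for counting error alone of 1123 to 33511, and it was 6306-fold without cultured replicate 4. Iqsec3 had 0 reads in culture and was at least 1616-fold higher (at least 2095-fold with the suffix). Gem (10.15 ± 0.61) and the hyaluronan synthase Has1 (10.18 ± 0.59) complete the rises beside Msc, Hspa1a and Itgbl1, which had 1 read in culture and 17227 after re-isolation (ratio 6978, interval 1252 to 275638). Without cultured replicate 4, which held that read, Itgbl1 was at least 1807-fold higher.

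Among the largest falls were genes known from the embryo and from neurons. Hand1, a factor of heart and lateral mesoderm, had 3230 reads in culture and 1 after re-isolation, in replicate 1 (ratio 7974, interval 1430.1 to 315049), and without that library it was at least 2245-fold lower. Its cultured values were 20.2, 67.3, 59 and 29.2 CPM. The potassium channel Kcnd2 had 1583 reads and then 0, at least 1303-fold lower (at least 739.6-fold with the suffix, and at least 812-fold without cultured replicate 2). The synaptic genes Syndig1 (-8.57 ± 0.59) and Svop (-8.17 ± 0.85), the secretogranin Scg2 (-8.07 ± 0.98), Vat1l (-8.89 ± 0.88), Ogdhl (-8.09 ± 0.65), Diras2 (-7.95 ± 0.62), Samd12 (-7.90 ± 0.94), Tmem108 (-7.87 ± 0.59) and Dhrs9 (-7.76 ± 0.80) stood beside Hmga2.

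**Figure D5:**
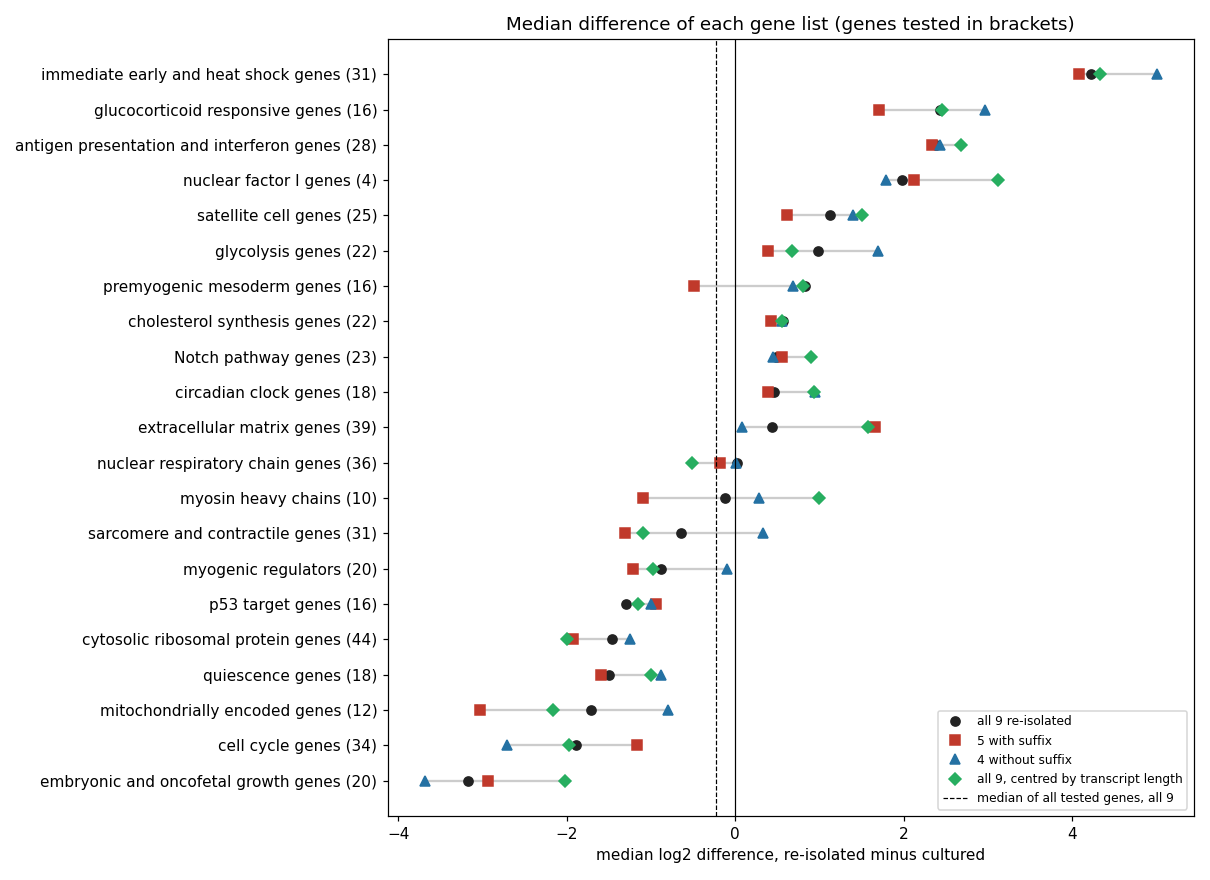
Median log2 difference (re-isolated minus cultured) of the gene programmes with at least 4 tested genes (cell type marker lists not drawn), for all 9 re-isolated libraries, the 5 with the suffix, the 4 without, and all 9 after centring by transcript length. The dashed line is the median of all tested genes, -0.23. Among these programmes immediate early genes lie highest at 4.23 and oncofetal genes lowest at -3.17.

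Glycolysis genes rose more often than they fell, and mitochondrially encoded genes fell. Of 22 glycolysis genes 11 rose and 2 fell (median 0.98), and with the suffix 9 rose and 6 fell of 22 (median 0.39). The glucose transporter Slc2a3 was at 5.84, 1.9, 3.02 and 12.4 CPM in culture and 43.1 to 149.5 CPM (median 58.5) after re-isolation (3.79 ± 0.42, adjusted p = 2.69e-06). The phosphofructokinases Pfkl (1.78 ± 0.28) and Pfkp (1.42 ± 0.30) and lactate dehydrogenase Ldha (1.81 ± 0.39) rose. Of 36 nuclear genes of the respiratory chain tested 7 rose and 10 fell (median 0.03), both below the shares of all genes (24.1% and 33.9%). With the suffix 7 rose and 15 fell of 36 (median -0.18), and after centring by length 4 rose and 15 fell (median -0.51), so the sign of the median depends on the fit. Sdhd (-1.80 ± 0.32) fell, Ndufb8 (1.22 ± 0.27) and Atp5o (1.62 ± 0.34) rose, and the coactivator Ppargc1a, which drives this set, fell (-3.25 ± 0.82). Of 12 mitochondrially encoded genes tested, none rose and 6 fell (median -1.71), with the suffix 0 rose and 7 fell of 10 (median -3.03), and their summed level was 33157 to 38582 CPM in culture and 4343 to 20347 CPM after re-isolation. mt-Nd2 fell by 4.39 ± 0.59 and mt-Co1 by 3.03 ± 0.65, while mt-Co3 (1.24 ± 0.52) and mt-Atp6 (0.74 ± 0.53) did not pass. Nuclear copies of mitochondrial DNA could take up some of these reads, so single members are uncertain.

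Cytosolic ribosomal protein genes fell: 35 of 44, with none higher (median -1.46), and 41 of 44 with the suffix alone (median -1.92). They are short, 36 of the 44 in the shortest class of transcripts (204 to 2016 bases), where the median gene was higher by 0.59. After centring by length 42 fell (median -2.0). Rps28 was at 362, 357, 316 and 314 CPM in culture and 5.76 to 18.3 CPM (median 12.6) after re-isolation (-4.96 ± 0.33, adjusted p = 1.98e-08), and Rps29 (-4.79 ± 0.31) and Rps12 (-4.45 ± 0.25) followed. Rpl34 did not pass (0.12 ± 0.19, adjusted p = 0.613). Many of these genes have processed copies in the genome that can share their reads. Cholesterol synthesis genes moved in both directions (of 22 tested 8 rose and 3 fell, and with the suffix 7 rose and 3 fell of 22 (median 0.43)), with Sqle (1.94 ± 0.29) and Fdps (2.12 ± 0.33), 2 enzymes of the pathway, among those that rose.

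The 2 sets of re-isolated controls differed from each other in 4210 of 13731 genes (30.7%), 2085 higher (15.2%) and 2125 lower (15.5%) with the suffix. Extracellular matrix genes were higher with the suffix in 24 of 39 and lower in none, and cell cycle genes higher in 17 of 34. Sarcomere genes were lower with it in 16 of 31, glycolysis genes in 18 of 22, ribosomal protein genes in 19 of 44 and glucocorticoid responsive genes in 10 of 16, with at most 1 higher in each. Satellite cell genes differed in 4 of 25, all lower with the suffix, a share near that of all genes (15.5%). Pax7 was at 11.5 to 61.6 CPM with the suffix against 51.8 to 113 CPM without. Dcn, a fibroblast proteoglycan, was at 640.2 to 7367 CPM with and 19.9 to 227 CPM without the suffix. When the sets were taken from the sample descriptions instead, which place control replicate 7 without the suffix, limma called 0 genes, with 2994 at an unadjusted p under 0.05. Replicate 7 held 267 CPM of the 3 Y-linked genes, against at most 6.33 CPM in the 4 libraries without the header suffix.

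The setting difference of the controls was also set against that of NICD1-overexpressing cells (3 cultured and 4 re-isolated libraries), which passed through the same change of kit. The interaction term of limma over these 20 libraries passed in 459 of 14245 genes (3.22%), 329 with a higher and 130 with a lower difference in NICD1-overexpressing cells. In 195 of the 459 the 2 differences had opposite signs. Vat1l averaged 63.3 ± 47.2 CPM (SD, n = 4) in cultured and 0.199 ± 0.536 CPM (n = 9) in re-isolated controls. In NICD1-overexpressing cells it averaged 22.1 ± 7.25 CPM (n = 3) and 134 ± 95.9 CPM (n = 4). The setting difference was -8.89 in controls and 2.40 in NICD1-overexpressing cells (interaction 11.30 ± 1.19, adjusted p = 1.11e-05).

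The glutamate transporter Slc1a3 had 0 reads in cultured and 623 in re-isolated NICD1-overexpressing cells, and 2466 and 1288 reads in the controls (difference in controls -2.59; interaction 9.78 ± 1.43, adjusted p = 0.000351, and 0.0946 with limma-voom). With 0 reads in a group the size of a fitted difference depends on the prior count. Sfrp2, a secreted Wnt modulator, differed by 3.87 in controls against -4.79 (interaction -8.66 ± 1.60, adjusted p = 0.00263, and 0.101 with limma-voom). The transcription factor Tfap2b was near 0 in both control groups (0.028 and 0.182 CPM) and stood at 44.3 ± 15.6 CPM (SD, n = 3) in cultured and 0.0389 CPM in re-isolated NICD1-overexpressing cells. Of the Notch targets, the difference of Heyl was smaller in NICD1-overexpressing cells (interaction -4.01 ± 1.04, adjusted p = 0.0327), and so was that of Hey1 (-3.58 ± 0.93, adjusted p = 0.0323). In Pax7 the interaction did not pass (-0.46 ± 0.90, adjusted p = 0.884). The count of 459 went from 224 with limma-voom to 1672 against the 4 libraries without the suffix, and to 240 or 235 without cultured NICD1-overexpressing replicate 2 or 3.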

How the data were processed

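RNA was sequenced from 4 cultured and 9 re-isolated control libraries, grouped by their titles; 7 NICD1-overexpressing libraries entered the interaction. The submitters' processing notes name Trimmomatic 0.33, FastQC, featureCounts, edgeR and the build mm10. Which aligner and annotation served is not given in the sources used here. For 21264 genes the authors deposited log2 CPM that hold a small prior count, as the values show. Their lowest level stands for 0 reads. Spacing of the low values returned whole read numbers (tolerance 0.05 reads), in 100% of the values tested. Whether the counts had been adjusted earlier is not stated in these sources. Of the genes, 21186 matched GENCODE M21, the source of coordinates and lengths.

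The deposited log2 values were tested with limma 3.58.1 (R 4.3.3; eBayes with trend, two-sided) for genes at 1 CPM or more in at least 3 libraries of a fit, with Benjamini-Hochberg adjustment and a threshold of 0.05; the script was tested on simulated data. CPM printed are back-transformed, with 0 for 0 reads. A fold against 0 reads sets 3 reads over that group, and with 1 to 3 reads the count ratio has a 95% interval for counting error only. Whether counting used strand is not given in the sources used here, so reads of overlapping genes cannot be told apart.

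Genes were named by rule: the 12 largest rises and falls without overlap and with a mean of 10 CPM or more on the higher side (predicted genes left out), up to 4 genes per list by smallest p, and the 6 largest interactions in each direction. Other list members were named after their values were seen. The members and lists were chosen with earlier results of these data known. Alternatives were other offsets, filters and scalings, array weights, limma-voom on the recovered reads, each set of re-isolated controls, each library left out, a replicate block and centring by transcript length. Replicate numbers did not pair the settings. Some members of the lists are not reported here.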

Additional observations from a re-analysis of the deposited data

Results flagged for a closer look

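Some libraries stood apart from the others of their group in the summed level of a gene list, by a test that chance fails in about 1 in 20 groups. Re-isolated control replicate 1 held 16030.0 CPM of immediate early and heat shock genes and 24.3 CPM of pluripotency genes, the lowest of the 9 in both. Cultured control replicate 1 was the highest of 4 in mitochondrially encoded genes (38582 CPM), and cultured control replicate 4 the highest in cholesterol synthesis genes (1882 CPM).

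Among the genes with the largest changes, cultured control replicate 4 was the 1 cultured library with a read of Prelp (0.892 CPM), Fmod (0.654), Dpt (0.297) and Itgbl1 (0.0595). Re-isolated control replicate 1 held the 1 read of Hand1 (0.0346 CPM), and re-isolated control replicate 6 the highest Vat1l (1.63 CPM). Of 274 groups of named genes tested 12 stood out in this way, 6 of them through cultured replicate 4 and 4 through re-isolated replicate 1. The total of 12 is no more than the about 1 in 20 groups that chance gives.

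The setting difference in NICD1-overexpressing cells differed from that in controls, by the interaction term, in 12 genes taken by size. The log2 term was -9.74 in Tfap2b, -8.66 in Sfrp2, -8.02 in Ankrd35, -7.32 in Tfap2c, -7.28 in Lgr5 and -7.26 in Syt13. It was 11.30 in Vat1l, 9.78 in Slc1a3, 9.65 in Crtac1, 8.97 in Slc38a5, 8.53 in Pla2g4e and 8.32 in Ermap. Syt13 and Pla2g4e (adjusted p = 0.0464 and 0.043) lost their call without any 1 of most libraries, among them each cultured NICD1-overexpressing one, and with limma-voom (adjusted p = 0.246 and 0.181).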

How the results depend on the processing

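The 7974 genes called between cultured and re-isolated controls stayed within 1.5 times under each alternative run: log2(CPM + 1) and log2(CPM + 5), no filter and 5 CPM, median ratio scaling, quantile normalisation, array weights, limma-voom, either set of re-isolated controls, and centring by length, over all 9 or the suffix set. Leaving out 1 library gave 6892 to 8109 genes. With the replicate block 5695 genes passed. The numbers do not pair the settings (correlations of deviations -0.115, -0.025, -0.029 and -0.033), and no replicate correlated best with its own number. Of 132 named genes past the threshold, 129 kept call and direction with each library left out in turn, 129 passed with the suffix alone, 132 after centring by length and 128 with the replicate block, and none of the 132 changed sign under a setting run. Of the named genes not past the threshold, Nfic, Tfcp2l1 and Dcx changed sign under some. These counts cover only genes named by rule, for a large change or the smallest p in a list. Their stability follows in part from that choice. Several list members named outside the rule lost their call in such fits, as given above. The interaction count of 459 became 1287 with array weights, 224 with limma-voom, 983 with the suffix set and 1672 with the set without it, and 235 to 497 on leaving out 1 library, with 318 under the replicate block. The difference between the 2 re-isolated sets (4210 genes) became 0 with the sets by description, which move replicate 7, and 3150 to 4441 on leaving out 1 library. The median of the premyogenic list (0.83) changed sign at 5 CPM (-0.157), with the suffix alone (-0.491) and with the suffix and centring by length (-0.0218); fewer of its genes were tested there. The 2 length centrings were chosen after the data were seen. Depth limits low genes: 3 reads are at most 0.196 CPM in these libraries.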
